A study of Mus musculus with 2 samples.

Results

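Pericytes carried over into endothelial cell sorts from 2 orthotopic mouse tumor models were examined at the level of single barcodes. A barcode was counted as a member when it held at least 2 UMIs (unique molecular identifiers, each marking 1 captured RNA molecule) of Notch3 and Higd1b together. It could hold at most 1 UMI of the immune gene Ptprc plus the epithelial gene Epcam, and at most 1 UMI of the fibroblast genes Lum plus Dpt. By this rule 153 of 21335 barcodes with at least 500 genes and less than 10% mitochondrial UMIs were members, 125 of them in the KPC library and 28 in the PyMT library. Members were then split on the endothelial genes Pecam1, Cdh5 and Egfl7. The 56 members with at most 1 UMI of these 3 genes are called pericytes below, and the 97 members with 2 or more are called endothelial-positive members.

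Each library came from tumors in female C57BL6 mice without an engineered allele, implanted with 100000 cancer cells at 6 weeks of age and digested on day 10. PyMT cells are a mammary cancer line derived from MMTV-PyMT mice and were placed in the mammary gland, and KPC cells are a pancreatic cancer line derived from p48-Cre mice with p53 alleles. Cells positive for CD45, EpCAM, Ter119, podoplanin or Annexin V were depleted before endothelial cells were sorted, so neither library samples the pericytes of a tumor in proportion. There was 1 library per tumor model and the number of mice in each was not given in the sources used here, so no difference below has a replicate check and none was tested. The KPC library held 10236 barcodes and 44441942 UMIs, and the PyMT library 12464 barcodes and 55547926 UMIs. The libraries shared 170 barcode sequences, 1.66% of the smaller library, and no barcode was a member in both.

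Pericytes are the mural cells of capillaries and small venules. They lie within the basement membrane that they share with the endothelium, are recruited by endothelial PDGF-B acting on the receptor PDGFRB, and depend on NOTCH3 signalling. Along the vessel they grade into the smooth muscle cells of arterioles, which carry a fuller contractile apparatus. In tumors pericyte coverage of vessels is often sparse and loosely attached.

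Pericytes made up 0.521% of the filtered KPC barcodes (50 of 9591, 95% exact Clopper-Pearson interval 0.387 to 0.687%) and 0.0511% of the filtered PyMT barcodes (6 of 11744, 0.0188 to 0.111%). In KPC 60.0% of members were endothelial-positive (75 of 125, 50.9 to 68.7%), and in PyMT 78.6% were (22 of 28, 59.0 to 91.7%). These intervals, and all those below, cover counting error only. In both libraries, therefore, the larger number of members carried transcripts of both cell types under 1 barcode. The small PyMT number limits what can be read from that library, where a single UMI corresponds to 79.7 CPM (a gene's UMIs per 1000000 UMIs summed over the class) in pericytes.

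The members were chosen by their UMIs of Notch3, Higd1b and the other genes of the rule, whose values are a description and no finding. KPC pericytes held a median of 3 UMIs of Notch3 and Higd1b, with 14 cells at the limit of 2 and a maximum of 12. Notch3 was seen in 30 of the 50 and Higd1b in 46. In PyMT 3 of the 6 pericytes stood at 2 UMIs, 4 held Notch3 and 3 held Higd1b. Just outside the limit, with 1 UMI of the pair and at most 1 of the endothelial genes, were 15 KPC and 7 PyMT barcodes. Rgs5, which the rule did not use, was present in 13 of those 15 and in 3 of those 7. On the endothelial side 37 KPC pericytes held no UMI of the 3 genes and 13 held 1, whereas 61 of the 75 KPC endothelial-positive members held 5 or more.

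The label was checked against markers outside the rule. All 50 KPC and all 6 PyMT pericytes held at least 3 UMIs of the pericyte genes Rgs5, Pdgfrb, Cspg4, Vtn, Cox4i2 and Ndufa4l2. Of the blood endothelial cells (BECs, barcodes under the same immune, epithelial and fibroblast limits with at least 2 endothelial UMIs and none of Notch3 or Higd1b, 7926 in KPC and 10888 in PyMT), 1.07% in KPC and 0.230% in PyMT did so. Lymphatic endothelial cells were not removed from this class. The lymphatic gene Prox1 was in 8.98% of its KPC and 6.69% of its PyMT barcodes. The median UMI count per barcode was 2367 in KPC pericytes and 2990 in KPC BECs, and 2419 and 3991 in PyMT, so the pericytes were the shallower class. The markers went with the name, beside the smooth muscle content described below. The name is less sure for the 6 PyMT pericytes. Of these 83.3% held the smooth muscle gene Myh11, but 33.3% and 16.7% held Abcc9 and Kcnj8, channel genes of mural cells.

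Summed over the 16 pericyte markers outside the rule, KPC pericytes reached 11366 CPM, endothelial-positive members 6500 and BECs 382. The PyMT values were 11324, 3490 and 346 CPM. The log2 ratio of pericytes over BECs was 4.89 (95% interval 4.82 to 4.97) in KPC and 5.03 (4.78 to 5.27) in PyMT. The order of the 3 classes was the same in both libraries, and at this UMI limit the pericyte levels were close. They were less so below it, since the 15 KPC and 7 PyMT barcodes just outside the limit stood at 10907 and 3842 CPM, and with them included the log2 ratio was 4.89 in KPC and 4.30 in PyMT. Of 13 pan-endothelial markers outside the rule the opposite held, at 952, 7131 and 9354 CPM in KPC and 1435, 6065 and 6417 in PyMT. Esam, which mural cells also express, was left out of these 13. With it the sums were 1570, 8048 and 10306 CPM in KPC and 1754, 6946 and 7431 in PyMT, and the log2 ratio of pericytes over BECs in KPC was -2.71 in place of -3.30. Per cell, 14 of the KPC pericytes held none of these endothelial UMIs, 46 held 5 or fewer and 4 held more, up to 28.

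**Figure D1:**
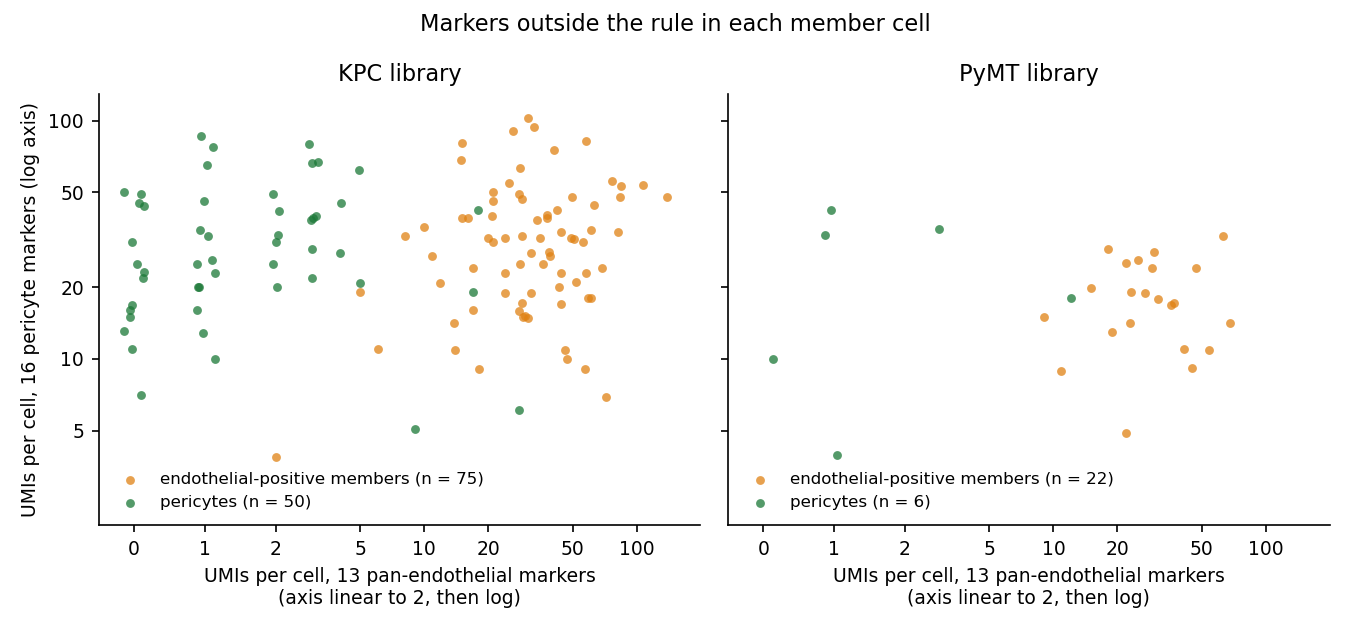
Each point is 1 member barcode, with its UMIs of 13 pan-endothelial markers on the horizontal axis and of 16 pericyte markers on the vertical axis, none of which the rule used. Pericytes lie to the left, 46 of 50 in KPC and 5 of 6 in PyMT at 5 or fewer endothelial UMIs, and endothelial-positive members lie to the right at similar heights.

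Across all genes the rule's own contrast gives the background for the counts that follow. Of 5332 genes with enough UMIs in KPC, 7.11% were at least 4-fold higher in pericytes than in BECs and 6.41% at least 4-fold lower. Of 563 such genes in PyMT the shares were 15.6% and 4.62%. The median gene had a log2 ratio of 0.01 in KPC and of -0.01 in PyMT. A gene had enough UMIs with at least 5 in pericytes, either observed there or expected from its BEC level. A gene that BECs hardly express could enter only when pericytes held it, and so had to come out higher. The counts below are therefore given over the genes that entered by their BEC level alone, 4291 in KPC and 380 in PyMT. Of these 1.14% and 1.58% were at least 4-fold higher in pericytes, and 7.97% and 6.84% at least 4-fold lower. Because the classes were split by genes of these same cells, the counts describe the classes and are no test.

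Of the pericyte markers outside the rule, 2 entered by their BEC level in KPC and 1 of them, Gm13889, was at least 4-fold higher in pericytes. Another 12 in KPC and 4 in PyMT, Rgs5 among them, entered only through the pericytes, and their values are given with no count. Rgs5, a regulator of G protein signalling that is a standard marker of pericytes, was found in 49 of 50 KPC pericytes, with a lowest value of 0, a median of 13.5 and a highest of 68 UMIs. The 6 PyMT pericytes, in rising order of total UMIs, held 3, 2, 24, 13, 21 and 15 UMIs of it. Only 3.73% of KPC BECs, 0.815% of KPC fibroblasts and 1.50% of PyMT BECs had any Rgs5 UMI. Rgs5 lies on chromosome 1 (GRCm38, 169655501 to 169695813, forward strand), stood at 5873 and 6220 CPM in KPC and PyMT pericytes and at 20.7 and 4.41 CPM in BECs. It was thus present in nearly every pericyte of both models and nearly absent from the cells around them.

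Pdgfrb, the receptor for endothelial PDGF-B, was detected in 33 of 50 KPC pericytes at 319 CPM against 1.07 CPM in BECs (log2 ratio 8.23, 7.56 to 8.91). It gave 3 UMIs in 3 of the 6 PyMT pericytes. Cspg4, which encodes the proteoglycan NG2 used to stain pericytes in tissue, gave 34 UMIs in 17 KPC pericytes (231 CPM against 0.28). It gave none in PyMT, where 0 UMIs allow a level of up to 294 CPM. Its absence from the 6 PyMT cells therefore cannot be told from a level like that in KPC. Vtn (vitronectin), Cox4i2 and Ndufa4l2, the last pair being alternative subunits of the mitochondrial respiratory chain, stood at 272, 170 and 1285 CPM in KPC pericytes and at 399, 319 and 1276 CPM in PyMT. Ndufa4l2 was in 49 of 50 KPC pericytes. In BECs these 3 genes were all under 5 CPM. Of 10 hypoxia and glycolysis genes that entered by their BEC level in KPC, 0 were at least 4-fold higher and 1, Ndrg1, at least 4-fold lower. Ldha and Pgk1, enzymes of glycolysis, had log2 ratios of 0.24 and -0.31.

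Kcnj8 and Abcc9 encode the pore and the regulatory subunit of the ATP-sensitive potassium channel of mural cells and are neighbours on chromosome 6. In KPC pericytes they stood at 625 and 401 CPM, in 26 and 28 of 50 cells, with log2 ratios of 4.90 (4.57 to 5.22) and 4.15 (3.74 to 4.53). In PyMT all 7 Kcnj8 UMIs were in 1 cell, the deepest of the 6 and the one with the fewest Acta2 UMIs. Both genes were also detected in BECs, Kcnj8 in 5.32% of KPC and 13.1% of PyMT BECs and Abcc9 in 7.17% and 14.6%. The BEC shares exceeded those of Rgs5 in the same cells, so the channel genes separated the classes less sharply than Rgs5 did. Mcam (CD146), an adhesion molecule of both cell types, was nearly level at 286 CPM in KPC pericytes against 202 in BECs.

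The contractile genes were among the most abundant lists in pericytes, above the 26 interstitial matrix genes in KPC (18884 CPM) and below them in PyMT (26954 CPM). The 16 smooth muscle genes summed to 24995 CPM in KPC pericytes, 8337 in endothelial-positive members and 1502 in BECs, and to 23445, 3098 and 1359 CPM in PyMT. The log2 ratios over BECs were 4.06 (4.01 to 4.10) and 4.11 (3.94 to 4.27). Of the genes that entered by their BEC level, 5 of 7 in KPC (Acta2, Tagln, Myl9, Cald1 and Tpm1) and 1 of 2 in PyMT (Cald1) were at least 4-fold higher. The same UMI limit mattered here too, the barcodes just outside it standing at 21698 CPM in KPC and 4842 in PyMT. Acta2, smooth muscle actin, gave 0 to 179 UMIs per KPC pericyte with a median of 8 and was found in 42 of 50. The 6 PyMT cells held 8, 20, 16, 15, 24 and 2 UMIs. The class levels were 7525 and 6778 CPM, against 93.9 and 7.63 in BECs. Tagln (transgelin, an actin-binding protein of smooth muscle) behaved alike at 3351 and 2711 CPM, but in 33 of 50 KPC cells only. Myh11, the smooth muscle myosin heavy chain, was in 21 of 50 KPC pericytes with at most 7 UMIs (258 CPM), and in 5 of 6 PyMT pericytes with 11 UMIs in all (877 CPM). The intermediate filament gene Des (999 CPM), the myosin light chain gene Myl9 (2678 CPM) and the tropomyosin gene Tpm2 (1815 CPM) were in 37, 47 and 44 of 50. In KPC the general contractile genes were thus seen in most pericytes. Myh11 and Actg2 were seen in 21 and 16 cells with 38 and 84 UMIs in all, so a cell at 0 UMIs of Myh11 cannot be read as lacking it.

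**Figure D2:**
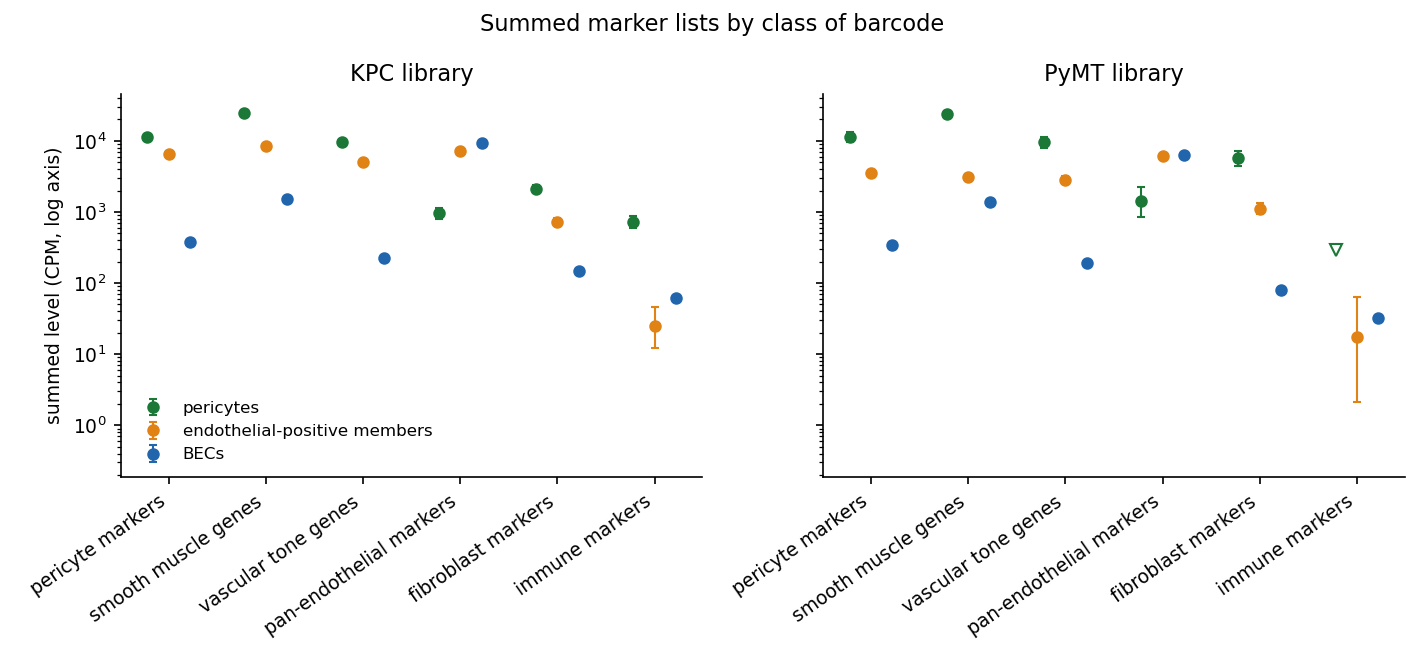
Summed level of 6 marker lists (CPM, log axis) in pericytes, endothelial-positive members and BECs of each library, with 95% counting intervals; genes used by the rule are left out, and an open triangle marks the upper limit of a list with no UMI. Pericyte, smooth muscle and vascular tone lists are highest in pericytes and lowest in BECs in both libraries, and the pan-endothelial list has the reverse order.

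The promoters of 2 contractile genes are shown because serum response factor, a known driver of smooth muscle genes, binds the CArG box, which is CC, 6 bases of A or T, and GG. RefSeq start regions (250 bases before to 50 after the start site, GRCm38.p6) were at hand for 13 of the 16 smooth muscle genes and were searched on both strands, the box reading as the same motif on either. A strict box was found for 1 of the 13 (Myl9, 7.69%) and for 1.81% of 27025 gene symbols. With 1 G or C allowed among the middle 6 bases, the counts were 2 of 13 (Acta2 and Myl9, 15.4%) and 11.3%. Of 10 pericyte markers with a start region none had either form. Of 11 pan-endothelial markers none had the strict form, and 4 (Egfl7, Eng, Kdr and Tek, 36.4%) had the relaxed one, a larger share than that of the smooth muscle genes. The boxes, in capitals with 10 bases on each side, read on the gene's own strand as follows.
Acta2, chr19:34255438-34255467, reverse strand: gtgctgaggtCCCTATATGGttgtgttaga
Acta2, chr19:34255388-34255417, reverse strand: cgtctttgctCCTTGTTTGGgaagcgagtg
Myl9, chr2:156775293-156775322, forward strand: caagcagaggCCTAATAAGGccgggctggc
Myl9, chr2:156775355-156775384, forward strand: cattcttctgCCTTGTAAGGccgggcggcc
The Acta2 boxes lie 84 to 75 and 34 to 25 bases before the RefSeq start site, within an exon of a longer GENCODE M21 transcript of the gene. Those of Myl9 lie 161 to 152 bases before the start site (the strict box) and 99 to 90 bases before it, upstream of every annotated transcript of the gene. A match is only a description of these letters, and binding was not measured.

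Genes that set vascular tone followed the same direction. Of the list's 26 genes, Ednrb and Rgs16 entered by their BEC level in KPC, and both were at least 4-fold higher in pericytes. The other 15 with enough UMIs entered only through the pericytes. Since 5 of the 26, Rgs5 among them, also stand on the pericyte list, the other 21 were summed alone. They reached 2515 CPM in KPC pericytes against 156 in BECs (log2 ratio 4.01, 3.85 to 4.16) and 2233 against 98.2 in PyMT (4.51, 3.92 to 5.04). Among receptors for constrictors, Agtr1a (angiotensin II) stood at 204 CPM in KPC pericytes against 0.38 in BECs, Ednra (endothelin) at 109 against 0.47, and Avpr1a (vasopressin) at 95.2 against 0.28. Ednrb, the second endothelin receptor, was also expressed by BECs, at 517 against 96.3 CPM. On the relaxing side, Gucy1a1 and Gucy1b1, the subunits of the nitric oxide receptor guanylate cyclase, stood at 211 and 218 CPM in KPC pericytes, with log2 ratios of 5.84 and 4.78. The cyclic nucleotide phosphodiesterases Pde5a and Pde3a had log2 ratios of 5.97 and 9.28. Each of these receptor and enzyme genes came from fewer than 35 UMIs except Ednrb with 76, so their order among each other cannot be read.

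The signals that pass between the 2 cell types were split between the classes. Pdgfb gave 1 UMI in KPC pericytes (6.80 CPM against 86.4 in BECs) and none in PyMT. The ligand gene Pdgfa ran the other way, at 659 against 62.2 CPM in KPC (log2 ratio 3.41, 3.10 to 3.70) and 957 against 73.0 CPM in PyMT (3.71, 2.76 to 4.52), in 33 of 50 and 5 of 6 pericytes. Of Notch ligands, Jag1 was higher in KPC pericytes (170 against 31.2 CPM) and Dll4 lower (6.80 against 106). Of the target genes, Heyl stood at 88.4 against 0.31 CPM, with 13 UMIs in 9 KPC cells, whereas Hes1 was nearly level with a log2 ratio of 0.45. Among Notch receptors other than the one in the rule, Notch4 had 1 UMI in KPC pericytes against 47.0 CPM in BECs, and Notch1 was not separated from BECs at this depth (log2 ratio -0.71, -1.92 to 0.27). Angpt1, the ligand that mural cells are known to supply to endothelial Tie2, gave only 2 UMIs in KPC pericytes. This was 13.6 CPM against 0.25 in BECs (log2 ratio 5.76, 2.49 to 8.09). The Tie2 gene Tek gave 1 UMI, 6.80 against 91.5 CPM.

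Gja4 and Esam, both listed as endothelial markers, were also found in many KPC pericytes. Gja4 (connexin 37), from the arterial list, was in 29 of 50 KPC pericytes and in 16.8% of BECs, at 435 against 131 CPM (log2 ratio 1.74, 1.36 to 2.09). In KPC fibroblasts it had 3 UMIs in all. In PyMT its 3 UMIs were in 1 pericyte. Esam, an adhesion gene of endothelial junctions, stood at 619 CPM in KPC pericytes, 917 in endothelial-positive members and 952 in BECs (log2 ratio -0.62, -0.93 to -0.33), and in fibroblasts at 20.1. The other 13 pan-endothelial markers outside the rule were all at least 4-fold lower in KPC pericytes, Cldn5 and Plvap with log2 ratios of -3.57 and -4.01.

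Of the matrix, the collagen of the shared basement membrane did not differ by much. Col4a1 stood at 972 CPM in KPC pericytes and 1051 in BECs (log2 ratio -0.11, -0.36 to 0.12), and at 1834 and 1168 CPM in PyMT (0.65, -0.01 to 1.24). Col4a2 followed it with log2 ratios of -0.20 and 0.76. In KPC the laminin genes Lama4, Lamb1 and Lamc1 had log2 ratios of -1.23, -1.48 and -1.51, and the perlecan gene Hspg2 of -1.97. Of the basement membrane genes that entered by their BEC level, 0 of 10 in KPC and 0 of 2 in PyMT passed 4-fold in either direction.

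Interstitial matrix genes summed to 18884 CPM in KPC pericytes and 26954 in PyMT, with log2 ratios over BECs of 1.33 (1.27 to 1.38) and 1.68 (1.52 to 1.83). Of those that entered by their BEC level, 5 of 10 in KPC (Col3a1, Bgn, Mgp, Eln and Mfge8) and 1 of 3 in PyMT (Sparcl1) were at least 4-fold higher. The PyMT pericytes, in rising order of total UMIs, held 8, 3, 2, 6, 2 and 29 UMIs of Sparcl1. Its PyMT call thus drew mostly on the deepest cell, and whether it holds without that cell was not tested. Aspn (asporin, a small leucine-rich proteoglycan) was at 612 CPM in KPC pericytes and 399 in PyMT, and under 1 CPM in BECs. Postn (periostin) stood at 639 against 8.12 CPM in KPC. The fibrillar collagen genes Col1a1, Col1a2 and Col3a1 stood at 503, 489 and 782 CPM against 17.4, 27.4 and 38.4. They were uneven among cells. In KPC 1 pericyte held 36 of the 74 Col1a1 UMIs, and in PyMT 1 of 6 held 26 of the 42 Col3a1 UMIs. Sparc, the matrix gene with the most UMIs in pericytes, was 5996 against 3707 CPM in KPC and 9809 against 4750 in PyMT, so BECs shared it. Serpine2, a protease inhibitor, stood at 992 against 53.5 CPM in KPC. Its 43 PyMT UMIs included 28 from 1 cell, the deepest. Of matrix receptors, 0 of the 3 integrin genes that entered by their BEC level in KPC passed 4-fold. Itga7, a laminin receptor of muscle cells, entered through the pericytes and stood at 122 against 0.19 CPM. Itga1, a collagen receptor, was at 680 against 182. Itgb1, their common partner, was nearly level at 829 against 609.

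**Figure D3:**
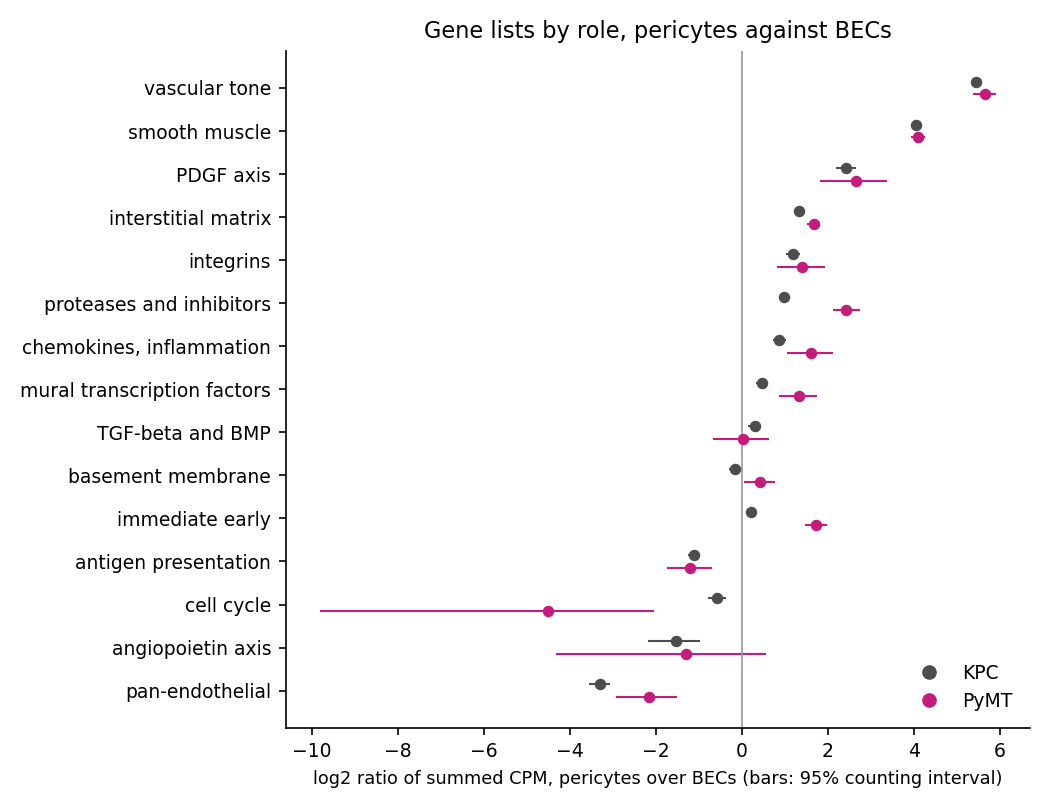
Log2 ratio of the summed CPM of 15 gene lists, pericytes over BECs, with 95% counting intervals, for KPC (dark) and PyMT (magenta). The pericyte and fibroblast lists are among those not drawn. Of the 15 drawn, vascular tone and smooth muscle lie farthest to the right in both libraries, basement membrane near 0, and the pan-endothelial list to the left.

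KPC pericytes also held UMIs of inflammatory ligands. Of 5 chemokine and inflammation genes that entered by their BEC level, 1 (Ccl2) was at least 4-fold higher than in BECs and 1 (Vcam1) lower. Ccl11 (eotaxin) was in 23 of 50 KPC pericytes, with 0 to 24 UMIs per cell, at 591 against 2.85 CPM (log2 ratio 7.70, 7.25 to 8.14). It was in 3 of the 6 PyMT pericytes with 8 of 11 UMIs in 1 cell. Ccl2 and Il6 were in 7 KPC pericytes each, and 1 cell held 30 of the 55 Ccl2 UMIs. Il34, a ligand of the macrophage growth factor receptor, gave 17 UMIs in 13 cells (116 against 1.88 CPM). Cxcl12 was lower at 88.4 against 228 CPM. Of the class I antigen presentation genes, H2-K1 had log2 ratios of -1.85 in KPC and -1.59 in PyMT. H2-D1 had -1.38 and -1.53, and B2m -1.02 and -0.98. None of them passed 4-fold.

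Among 7 mural transcription factors that entered by their BEC level in KPC, 0 were at least 4-fold higher in pericytes and 1, Meox1, lower, while 8 entered only through the pericytes. Of the latter, Foxs1 and Tbx2, factors known from mural cells, and Prrx1, a factor of mesenchyme, had log2 ratios of 8.11, 6.83 and 8.16. Ebf1 was at 673 against 169 CPM, in 40 of 50 cells. Nr2f2, which encodes COUP-TFII, the venous factor that the study manipulates in endothelium, was in 22 of 50 KPC pericytes at 265 CPM against 73.4 in all BECs (log2 ratio 1.85, 1.36 to 2.31). In PyMT it had 6 UMIs in 4 of 6 pericytes, 478 against 47.5 CPM (3.33, 1.89 to 4.46). In KPC the reverse was seen for Meox1, with 1 UMI in pericytes against 216 CPM in BECs, and for Klf2, a factor induced by flow, at 428 against 899.5 CPM. In PyMT Meox1 stood at 159 against 162 CPM with 2 UMIs, and Klf2 at 718 against 557 CPM (log2 ratio 0.37, -0.76 to 1.29). Cell cycle genes summed to 1224 CPM in KPC pericytes against 1807 in BECs, and to 1 UMI in PyMT pericytes.

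A fixed rule on both libraries named 20 higher and 10 lower genes out of 1011 and 2318 that met its limits. The higher genes were Aspn, Vtn, Cygb, Rgs5, Ndufa4l2, Myh11, Prrx1, Cox4i2, Cryab, Des, Ccl11, Rarres2, Avpr1a, Foxs1, Meg3, Col6a3, Cd248, Tpm2, Rgs4 and Acta2, with KPC log2 ratios from 6.32 for Acta2 to 9.67 for Aspn. Of those not described above, Cygb (cytoglobin, a globin of pericytes and stellate cells) stood at 408 CPM in KPC pericytes and 558 in PyMT, and at 0.35 in PyMT BECs. Cryab, a small heat shock protein of muscle, stood at 809 and 718 CPM. Cd248 (endosialin), a glycoprotein of tumor pericytes and fibroblasts, stood at 333 and 319 CPM. Meg3, a long noncoding RNA, was at 789 CPM in KPC and 2951 in PyMT, where the 6 cells held 0, 1, 17, 5, 10 and 4 UMIs. The lower genes included Igfbp3, Gpihbp1, Ly6a, Ctla2a, Cd34, Ecscr, Vwa1, S100a16 and Fscn1. Igfbp3, which encodes an insulin-like growth factor binding protein, was at 81.6 CPM in KPC pericytes against 1202 in BECs, and had no UMI in any of the 6 PyMT cells against 1674 CPM in BECs, where a floor of 3 UMIs for the class puts the log2 ratio at -2.81 or below. Gpihbp1, which holds lipoprotein lipase on capillaries, was at 13.6 against 692 CPM in KPC and at 0 UMIs in PyMT. Of these 30 genes 12 overlapped another counted gene on the opposite strand, Aspn and Ndufa4l2 among them, and whether counting used strand was not given in the sources used here.

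**Figure D4:**
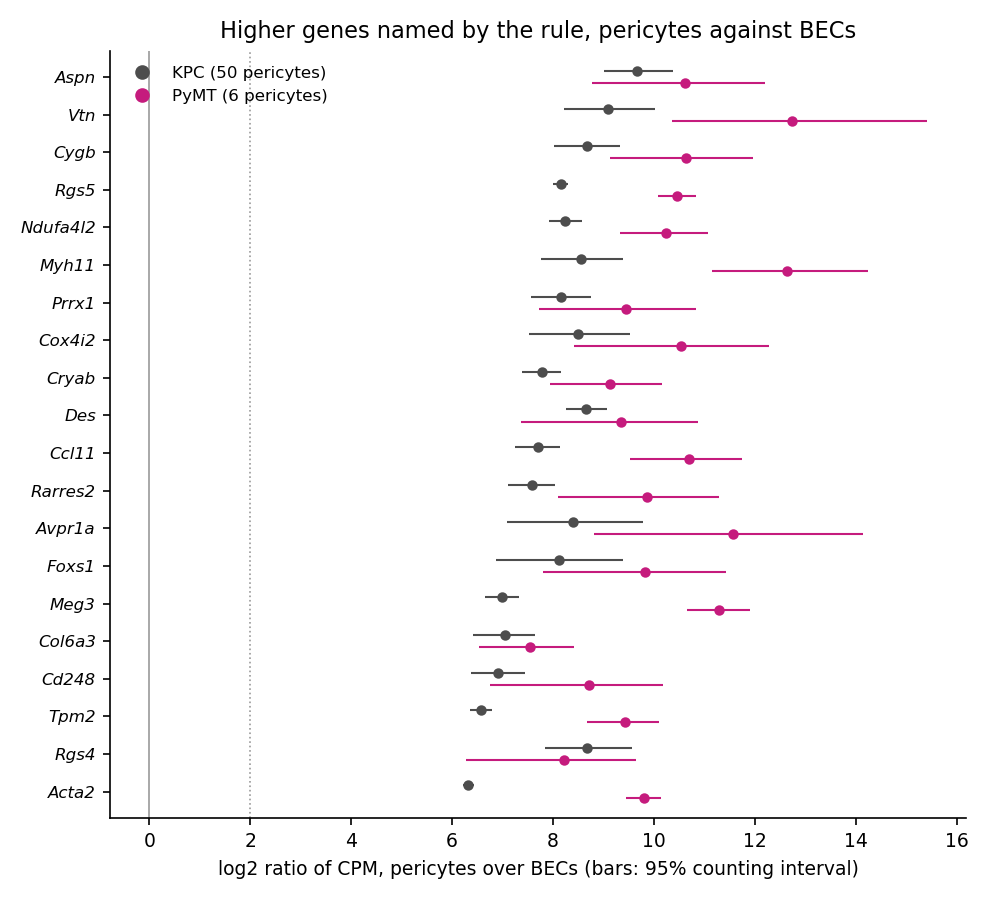
Log2 ratio of CPM, pericytes over BECs, for the 20 higher genes in KPC (dark, 50 pericytes) and PyMT (magenta, 6 pericytes), with 95% counting intervals; the dotted line marks 4-fold. The genes lie beyond 6 on the log2 scale in both libraries, and PyMT intervals are the wider ones.

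KPC pericytes differed among themselves in contractile content. Set out by their UMIs of Myh11, Cnn1 and Actg2, 19 held at least 2, 11 held 1 and 20 held none. This is a range cut from a count, with the 11 cells of 1 UMI lying at the cut. Without those 3 genes, the smooth muscle list stood at 31129 CPM in the 19 cells and 16542 in the 20 (log2 ratio 0.91, 0.79 to 1.04). Acta2 was at 10942 against 3629 CPM and Tagln at 4671 against 1877, Tagln being found in 19 of 19 and 8 of 20 cells. The pericyte markers ran the other way, 8684 against 14089 CPM (-0.70, -0.86 to -0.54), and Rgs5 at 4133 against 7482 CPM (-0.86, -1.08 to -0.63). Vtn and Cox4i2 were also lower in the 19, at 119 against 450 and 59.7 against 300 CPM. Ndufa4l2 was not separated, at 1123 against 1401 CPM (-0.32, -0.81 to 0.18).

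Depth moved with this range, since the 19 cells had a median of 3742 UMIs and the 20 a median of 1769. When each cell was thinned to 1000 UMIs, which left 18 and 16 cells, the log2 ratios were 0.99 for the smooth muscle list, -0.45 for the pericyte list and -0.69 (-1.10 to -0.29) for Rgs5. Endothelial RNA moved with it too, the 13 pan-endothelial markers standing at 394 CPM in the 19 cells and 1627 in the 20. So did the 14 immediate early genes, at 6844 against 12638 CPM (log2 ratio -0.88, -1.06 to -0.71, and -0.88 after thinning). The part of either in these differences was not tested. Of 950 genes with enough UMIs, 19 were at least 4-fold higher and 7 at least 4-fold lower in the 19 cells. A gene could enter here through either range, so 1 held by a single range had to come out higher there. The higher genes included Thbs1 (thrombospondin 1, 45 against 1 UMIs) and Col8a1 (a collagen of vessel walls, 30 against 0). Both had enough UMIs only through the 19 cells. Ifitm1, a membrane protein gene induced by interferon, was among the most different in the other direction at 669 against 2603 CPM. The PyMT cells, 2 and 1 in these ranges, were not compared.

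**Figure D5:**
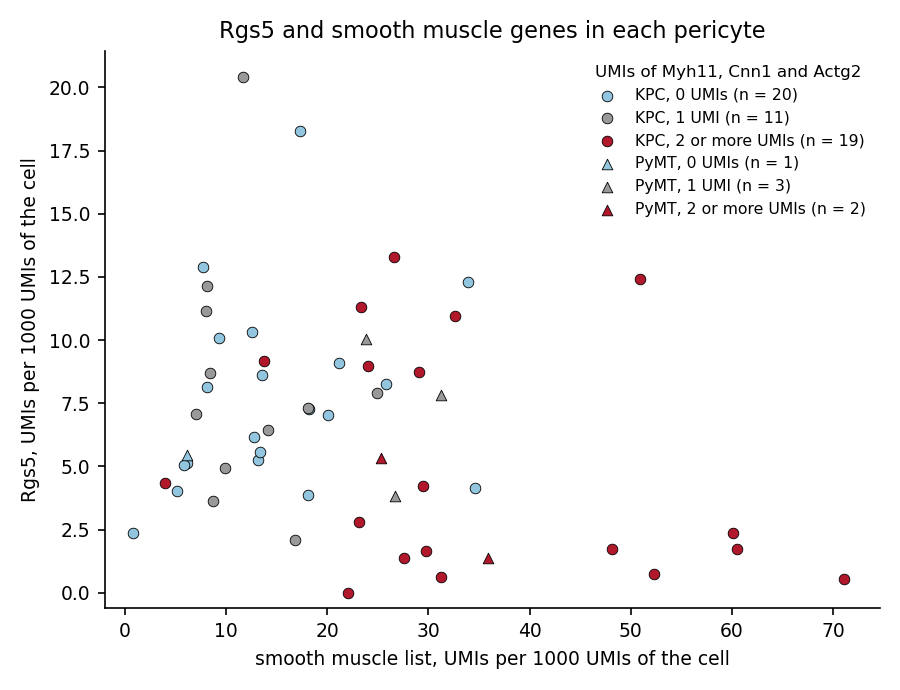
Each point is 1 pericyte, with its smooth muscle list UMIs (horizontal) and Rgs5 UMIs (vertical) per 1000 UMIs of the cell, colored by its UMIs of Myh11, Cnn1 and Actg2. Pericytes with the highest smooth muscle content, all in KPC with 2 or more of these UMIs, mostly hold little Rgs5, and the 6 PyMT cells (triangles) lie inside the KPC spread.

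Fibroblasts were compared as another stromal class, with 368 barcodes in KPC (2 or more UMIs of Lum and Dpt, none of Notch3 or Higd1b) and 26 in PyMT, too few to compare there. Of 4995 genes in KPC, 4.18% were at least 4-fold higher in pericytes than in fibroblasts and 5.45% at least 4-fold lower. These shares were not limited to genes that entered by the fibroblast level alone. A gene that fibroblasts hardly express could enter only through the pericytes and had to come out higher. Pericyte markers outside the rule stood at 11366 against 651 CPM (log2 ratio 4.13, 4.01 to 4.24) and vascular tone genes at 9680 against 260 (5.22, 5.06 to 5.38). Rgs5 had 3 UMIs in all 368 fibroblasts. Smooth muscle genes separated the classes less, at 24995 against 6466 CPM (1.95, 1.90 to 2.00), and Acta2 was in 39.1% of fibroblasts at 1250 CPM. The fibroblast list was lower in pericytes at 2114 against 29327 CPM (-3.79, -3.96 to -3.63). Dcn (decorin) gave 5 UMIs in the pericytes, at 34.0 against 3983 CPM, and Pdgfra and the complement gene C3 none. Some genes did not separate them, with Postn at 639 against 530 CPM and Prrx1 at 394 against 293. Interstitial matrix, proteases and inhibitors, and chemokine lists were lower in pericytes than in fibroblasts, with log2 ratios of -1.39, -1.43 and -1.40, although they were higher in pericytes than in BECs.

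The KPC and PyMT pericytes could be set side by side only coarsely. Of 1378 genes with at least 20 UMIs over the pericytes of both libraries, 0 had an interval of the ratio lying wholly past 4-fold in either direction. Cebpb, a transcription factor of acute responses, gave 87 UMIs in 31 of 50 KPC pericytes and none in PyMT. The other classes differed in the same direction on Cebpb. It was in 59 of 75 KPC and 9 of 22 PyMT endothelial-positive members, and in 29.6% and 10.6% of BECs. Actg2, an actin of visceral smooth muscle, gave 84 UMIs in 16 KPC cells and none in PyMT. Ifitm1 stood at 1353 CPM in 39 of 50 KPC pericytes against 319 CPM in 2 of 6 PyMT pericytes. The endothelial-positive members differed in the same direction on Ifitm1, which was in 59 of 75 in KPC and in 6 of 22 in PyMT, while 1.29% and 0.487% of BECs held it. Col3a1 was the higher one in PyMT, 3349 against 782 CPM, with 26 of its 42 UMIs from 1 cell. Tumor model, organ and library cannot be told apart here.

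Single cells carried some of the sums. In KPC 1 pericyte, the deepest at 8749 UMIs, held 112 of the 115 UMIs of immune genes found in the class, with 78 of 79 of Lyz2 (lysozyme of macrophages), 11 of 11 of Fcer1g and 10 of 10 of Tyrobp. It also held 38 UMIs of Rgs5, 10 of Higd1b and 36 of Col1a1. The immune list in the KPC pericytes was therefore almost wholly that barcode. In PyMT 1 pericyte of 2448 UMIs held 12 of the 18 pan-endothelial UMIs, all 3 of Plvap and all 3 of Ackr1, a marker of venules. Without it the pan-endothelial log2 ratio in PyMT was -3.43 in place of -2.16. Erythroid, Schwann and mesothelial markers gave 3, 1 and 1 UMIs in KPC pericytes, and the epithelial list outside the rule 10.

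The endothelial-positive members carried both sets at once. At least 3 UMIs of the pericyte genes used for the label check and at least 3 of the pan-endothelial genes were found together in 74 of 75 in KPC and 20 of 22 in PyMT, against 16 of 50 and 2 of 6 pericytes and 1.05% and 0.211% of BECs. Their median UMI counts, 4108 and 4795, were above those of pericytes and of BECs. In KPC their pericyte markers stood at 57.2% of the pericyte level and their pan-endothelial markers at 76.2% of the BEC level. In PyMT these shares were 30.8% and 94.5%. Smooth muscle genes were more reduced than pericyte markers relative to pericytes, at 33.4% in KPC and 13.2% in PyMT. Acta2 was found in 61.3% of the KPC and 31.8% of the PyMT endothelial-positive members, against 84.0% and 6 of 6 pericytes, whereas Rgs5 was in 75 of 75 and 20 of 22.

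Markers of endothelial subtypes in these members were described per 100 UMIs of the 13 pan-endothelial markers, beside BECs. Capillary markers stood at 80.7 against 69.0 in KPC, and at 189 against 67.5 in PyMT. Fabp4, a fatty acid binding protein of capillary endothelium, gave 945 of the 1315 PyMT capillary UMIs. It was in all 22 PyMT endothelial-positive members with a median of 38 UMIs, and in 83.8% of BECs with a median of 4. Pericytes held it as well, in 5 of 6 in PyMT at 2791 CPM (1944 to 3882) against 1977 in BECs, and in 30 of 50 in KPC at 979 against 4604 CPM. How much of the Fabp4 of endothelial-positive members came from either cell type was not tested. In PyMT endothelial-positive members Cd36, a fatty acid transporter, stood at 1004 CPM against 207 in BECs. PyMT pericytes held Cd36 as well, in 5 of 6 at 797 CPM (382 to 1467). Its split between the cell types was not tested either. In PyMT endothelial-positive members Cd300lg was also higher than in BECs, at 166 against 44.4 CPM. Rgcc was not separated from BECs, at 724 (577 to 898) against 590 CPM. Gpihbp1 (960 against 1130 CPM) and Car4 (375 against 386 CPM) were not higher. In KPC endothelial-positive members Fabp4 was lower than in BECs, at 3907 against 4604 CPM. Lymphatic markers were lower at 9.06 against 24.0 in KPC and 1.73 against 16.5 in PyMT, where the BECs include barcodes with lymphatic genes. Arterial markers stood at 9.58 against 5.65 and 11.1 against 6.30, but Gja4, which pericytes express as well, gave 122 of the 272 arterial UMIs in KPC. On the same scale the log2 ratio of endothelial-positive members over BECs was -0.22 (-0.37 to -0.08) in KPC and 0.09 (-0.18 to 0.34) in PyMT for venule markers. Angiogenic markers stood at 14.8 against 13.9 and 20.4 against 28.6. The part that droplets with more than 1 cell have in these values, beside the higher UMI counts given above, was not tested.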

How the data were processed

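The 2 count matrices were deposited by the authors as UMI counts per gene and barcode, made with Cell Ranger 3.0 (3.0.2 in the file header) on mm10 from 10x Chromium 3' libraries. The deposited counts are not normalized. Barcodes with at least 500 genes and less than 10% mt- UMIs were kept, and no doublet caller was run. Members were chosen with earlier results of these data known, as were the 30 gene lists (370 of 371 symbols matched). Sums of UMIs per class and library were scaled to CPM, the depth of each value being its class's UMIs (147107 in KPC and 12540 in PyMT pericytes). Intervals are exact Poisson for levels, exact conditional binomial for ratios and Clopper-Pearson for shares. A ratio against 0 UMIs used a floor of 3. A gene entered a count with at least 20 UMIs summed in both classes and at least 5 observed in pericytes, or expected there from the BEC level, and was called past 4-fold. Genes were named within the lists, and outside them as the 20 highest and 10 lowest by the weaker library's interval bound nearest 0, among genes in at least 20% of the pericytes (lowest: BECs) of each library. For KPC beside PyMT and for the smooth muscle range, the 8 genes per side with the farthest bound could be named, among genes in at least 10% of pericytes. Rule, mt- and ribosomal protein genes were left out. Gene positions came from GENCODE M21 and promoters from RefSeq. Python 3.11.15, numpy 2.4.6, scipy 1.17.1, pandas 2.3.3 and matplotlib 3.10.9 were used, and the ratio code was tested on simulated data. Alternatives to each limit are given in the closing section. As 1 library per model allows no test, none was run. Of the 10 lower genes 1, and of the alleles of the KPC line 1, is not reported here.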

Additional observations from a re-analysis of the deposited data

Results flagged for a closer look

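Of 370 genes of the lists or named by the rule, 5 had log2 ratios of pericytes over BECs with opposite signs in the 2 tumor models and 95% counting intervals that left out 0 in both. Across all 30789 genes, of which 473 had enough UMIs in both models, there were 13 such. Among genes with enough UMIs in both models, 2 of 84 listed genes and 8 of 473 genes in all were such. Of the 5 genes, Ackr1, Selp and Cxcl12 did not have enough UMIs in PyMT. Opposite signs alone, whatever the intervals, were seen for 11 of the 84 listed genes and for 125 of the 473. The difference between the models was not tested, since each has 1 library. Ackr1, a chemokine-binding receptor of venules, stood at -2.06 in KPC, a value set by the floor because no pericyte there held a UMI, and at 3.07 in PyMT. Selp, the venular adhesion receptor P-selectin, stood at -3.99 and 2.83. All 3 Ackr1 and all 3 Selp UMIs of the PyMT pericytes were in the 1 cell that held 12 of the class's 18 pan-endothelial UMIs. The immediate early genes Jun (-0.37 in KPC, 1.73 in PyMT) and Jund (-0.81 and 1.41) also drew on that cell, with 10 of 24 and 5 of 8 UMIs. Cxcl12, a chemokine of stroma and vessels, stood at -1.37 in KPC and 2.40 in PyMT, where its 4 UMIs were in 3 of the 6 pericytes and none in that cell.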

How the results depend on the processing

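Of the 12 shares, sums and counts and the 53 gene ratios that were recomputed, none changed sign under the alternatives run. Shares and counts cannot change sign, and the ratios were of genes named for their large ratios, so this says little. Sizes moved for 31 of the recomputed shares, sums and counts, given next, and for 49 of the recomputed gene ratios. Another 89 and 474 were classed as the same. Other values in the text were not recomputed. Requiring at least 3 UMIs of Notch3 and Higd1b gave a KPC pericyte share of 0.375%, and requiring 0 endothelial UMIs 0.386%. The PyMT share was 0.111% with 1 UMI of the pair (13 cells) and 0.0255% with 3 (3 cells). The KPC endothelial-positive share was 69.6% when barcodes needed 1000 genes and a mitochondrial share below 5%, 68.8% with 1 UMI of the pair and 70.4% with 0 endothelial UMIs. The log2 ratio of pericyte markers in KPC was 4.82 without lymphatic BECs and 4.98 as a mean over cells, and in PyMT 4.30 with 1 UMI and 5.34 with 3. That of smooth muscle genes in KPC was 4.11 with 3 UMIs, 4.17 with Ptprc, Epcam, Lum and Dpt at 0, 4.25 with 0 endothelial UMIs and 4.13 without the immune-rich cell, and in PyMT 3.17 with 1 UMI, 3.89 with 3 and 3.93 with 0 endothelial UMIs. For the pan-endothelial markers it was -3.04, -3.83 and -3.82 in KPC and -1.41, -3.33 and -3.20 in PyMT with 1 UMI, 3 UMIs and 0 endothelial UMIs, and -3.43 in PyMT without 1 cell and -2.71 in KPC with Esam. Leaving out these single cells, adding Esam and the limit to the BEC level were chosen after seeing the data. The count of genes at least 4-fold higher was 379 in KPC and 88 in PyMT, 188 and 38 after thinning each cell to 1000 UMIs, where fewer genes reach the minimum, 795 and 146 at 2-fold, 49 and 6 among genes that entered by their BEC level alone, and 162 in PyMT with 1 UMI. No paired analysis was possible because each model has 1 library. With 6 PyMT pericytes, a gene at 0 UMIs there may lie at up to 294 CPM.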
